A study of Mus musculus with 24 samples.

Results

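Cryaa, Cryab and Hspb1 encode small heat shock proteins, and their RNA levels were followed in the developing mouse lens. The 3 genes were chosen by name, as the rows of the count table that carry these symbols, and each has 1 row among the 12611 gene symbols listed. The libraries come from CD1 mice, an outbred stock, with no genetic change or treatment given in the labels. Lenses were microdissected into epithelium and fiber at 3 embryonic stages (E14.5, E16.5 and E18.5, in days of gestation) and 1 postnatal stage (P0.5). Stranded total RNA libraries were made from each tissue and stage with 3 biological replicates, which gives 8 groups and 24 libraries. The sources used here do not give whether a replicate pools several animals.

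Small heat shock proteins are chaperones that hold unfolding proteins in solution without using ATP. They share a conserved alpha crystallin domain and assemble into large oligomers. Cryaa and Cryab encode alphaA and alphaB crystallin, which together form alpha crystallin, a main structural protein of the lens that also keeps the other crystallins soluble. Cryaa is largely restricted to the lens, whereas Cryab is also expressed in heart and skeletal muscle. Hspb1 encodes the stress-inducible chaperone known as Hsp25 in mouse, which binds actin and intermediate filaments. The lens epithelium is the layer of dividing cells at the front of the lens, and fiber cells arise from it, elongate and accumulate crystallins.

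Cryaa lies on chr17:31677807-31681733 (GRCm38, GENCODE M21, plus strand), Cryab on chr9:50751325-50756636 (plus strand) and Hspb1 on chr5:135887919-135889563 (plus strand). All 3 are annotated as protein coding, and the counts are reported per gene, so exons and introns are not distinguished here. Cryaa and Cryab have coding sequences of 519 and 525 bases, which were identical in 70.4% of 496 aligned positions. The Hspb1 coding sequence has 627 bases and was identical to Cryaa in 65.4% and to Cryab in 64.7% of aligned positions. The stretch where the alpha crystallin genes are most alike is shown because it bears on whether a read can be assigned to 1 of them. Capitals mark the longest identical run, 22 bases, at coding positions 224 to 245 of Cryaa and 236 to 257 of Cryab (GENCODE M21 transcripts).
Cryaa: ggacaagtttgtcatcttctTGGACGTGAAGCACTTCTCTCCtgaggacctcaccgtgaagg
Cryab: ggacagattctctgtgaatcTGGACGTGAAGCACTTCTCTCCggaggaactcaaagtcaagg
This run is shorter than the 100-base reads. No 50-base word of Cryab's transcripts (0 of 797) occurred in the transcripts of another gene. For Cryaa, 8.30% of 50-base words occurred in 1 other annotated gene, AC090881.2, which overlaps Cryaa and has no row in the count table. For Hspb1, 516 of 854 words (60.42%) also occurred in Gm9817 and the pseudogene Hsp25-ps1, neither of which has a row. Hspb1 reads that match these copies may therefore have been left out or divided, so the absolute level of Hspb1 is uncertain. The near-identical globin genes Hba-a1, Hba-a2, Hbb-bs and Hbb-bt were listed at 0 in every library, while Hbb-y was counted at up to 233 CPM in E14.5 epithelium. The part of read sharing in the Hspb1 values was not tested.

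The 250 bases upstream of the RefSeq transcription start (GRCm38.p6) are shown for Cryaa and Hspb1, the members with an entry in the promoter table used here. Cryab was not matched. They are shown because both genes were higher in fiber. For Cryaa the window is chr17:31677681-31677930 (plus strand), and a GENCODE M21 transcript of Cryaa starts upstream, inside this window. For Hspb1 the window is chr5:135887669-135887918 (plus strand). Capitals mark the MAF recognition core TGCTGAC in Cryaa and the inverted repeats GAANNTTC, a core pattern of heat shock elements, in Hspb1.
Cryaa: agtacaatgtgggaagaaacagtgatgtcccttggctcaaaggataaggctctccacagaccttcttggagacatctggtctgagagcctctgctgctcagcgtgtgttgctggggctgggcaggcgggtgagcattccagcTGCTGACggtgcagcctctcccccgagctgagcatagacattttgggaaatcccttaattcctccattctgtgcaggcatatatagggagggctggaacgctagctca
Hspb1: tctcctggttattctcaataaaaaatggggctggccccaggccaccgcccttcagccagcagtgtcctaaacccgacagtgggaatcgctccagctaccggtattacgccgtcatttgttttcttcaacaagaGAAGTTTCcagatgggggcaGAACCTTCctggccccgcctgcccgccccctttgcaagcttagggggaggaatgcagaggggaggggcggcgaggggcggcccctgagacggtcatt
TGCTGAC was searched on both strands and occurred once in Cryaa, 108 bases before the start, and not in Hspb1. It was found in 3.81% of 32851 upstream windows of the same length. GAANNTTC or TTCNNGAA occurred at 2 places in Hspb1, 117 and 97 bases before the start, and at none in Cryaa. It was found in 12.84% of the same windows. These are matches of letters and show no binding.

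Epithelium libraries held 7658794 to 11819117 counts in all, and fiber libraries 13010174 to 21617737. Levels are normalised read counts (CPM), which are relative to the library size after TMM scaling, and TMM sets libraries so that most genes do not differ. Epithelium libraries had TMM factors of 1.41 to 1.58 and fiber libraries of 0.442 to 0.869, so a fiber CPM is larger than the plain share of counts. The median fiber to epithelium difference of all genes, averaged over 4 stages, was -0.03 on the log2 scale, and -1.23 with plain library sizes. Between 3.98% and 28.9% of counts per library belonged to Rn45s, a precursor of ribosomal RNA. Of 7 lens fiber markers 7 were higher in fiber, with summed levels of 20348 to 41602 CPM in fiber and 768 to 1263 CPM in epithelium. Of 8 lens epithelium markers 7 were lower in fiber, with summed levels of 336 to 411 CPM in fiber and 1611 to 2699 CPM in epithelium. Epithelium libraries also held RNA of blood vessels: the 10 endothelium markers summed to 248 to 467 CPM in epithelium and to 11.1 to 38.7 CPM in fiber. In bulk tissue, fewer cells of a type and less RNA per cell cannot be told apart.

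Cryaa was among the most abundant transcripts of both tissues and higher in fiber at every stage. In epithelium it ranked 3rd of 12427 tested genes at each stage. In fiber its group mean ranked 1st at E14.5 and P0.5 and 2nd at E16.5 and E18.5. Single libraries differed in whether Rn45s took more counts than Cryaa. In the E18.5 fiber libraries Rn45s took 8.91%, 28.9% and 6.55% of counts and Cryaa 11.2%, 9.05% and 11.7%. In the first E14.5 fiber library they took 9.12% and 8.01%. At E14.5 the 3 epithelium libraries had 6547, 7301 and 8407 CPM and the 3 fiber libraries 96813, 97969 and 109114 CPM. At P0.5 the epithelium libraries had 10673, 13859 and 15540 CPM and the fiber libraries 219065, 227426 and 228877 CPM. The lowest fiber library stood far above the highest epithelium library, and the groups did not overlap at any stage. As a plain share of counts, Cryaa took 1.09% ± 0.151 (SD, n = 3) of E14.5 epithelium and 12.9% ± 0.174 of P0.5 fiber.

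**Figure D1:**
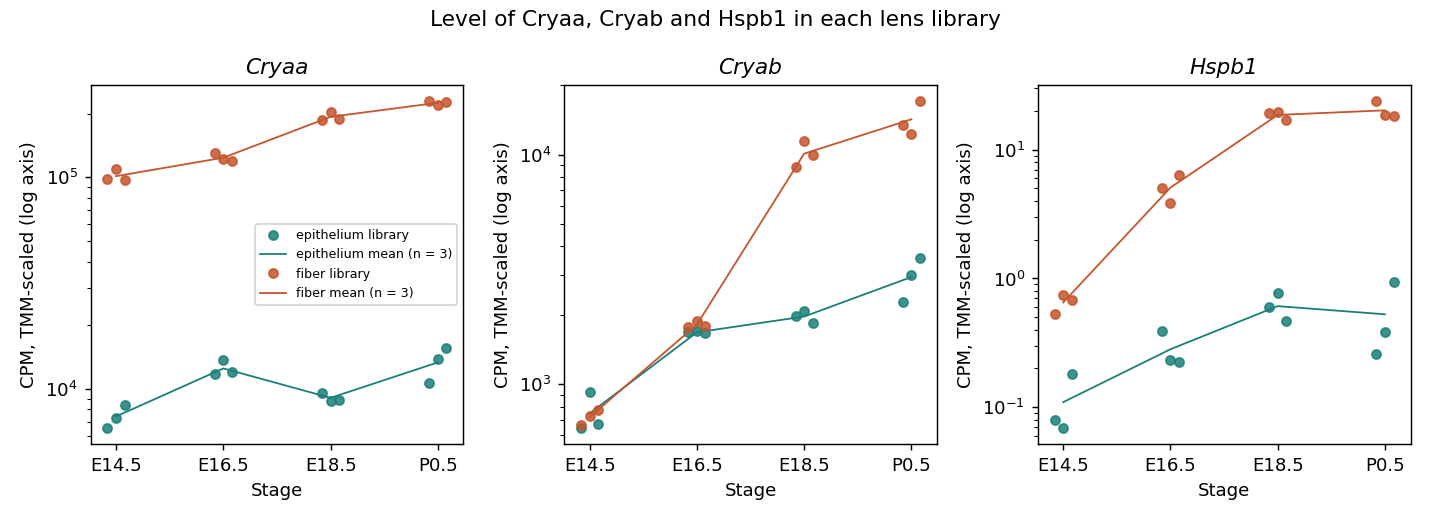
Level of each gene (CPM after TMM scaling, log axis) against stage, with 1 point per library and lines through the means of 3 libraries. Cryaa is higher in fiber throughout, Cryab is at similar levels in both tissues at first and separates from E18.5 on, and Hspb1 is near 0 in epithelium and climbs in fiber to a mean of 20.2 CPM.

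Averaged over 4 stages, Cryaa was 14.8-fold higher in fiber (log2 3.89, SE 0.07, adjusted p = 4.91e-24 by edgeR's quasi-likelihood test). All 3 genes were called higher in this comparison, in which 15.7% of all genes tested were called higher. A call here means a Benjamini-Hochberg adjusted p under 0.05 and at least a 2-fold difference. For Cryaa the single stages gave 13.7-fold (E14.5), 9.90-fold (E16.5), 21.3-fold (E18.5) and 16.9-fold (P0.5). Its change from E14.5 to P0.5 was small for its error (log2 0.30, SE 0.18, adjusted p = 0.185, edgeR).

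Cryaa was higher at P0.5 than at E14.5 in both tissues, by over 2-fold in fiber and under 2-fold in epithelium. The change of its tissue difference over this interval was not called, and was -0.33 on the log2 scale with plain library sizes. From E14.5 to P0.5 Cryaa rose 2.22-fold in fiber (log2 1.15, SE 0.13, adjusted p = 9.90e-08, edgeR), from a mean of 101299 ± 6793 CPM to 225123 ± 5296 CPM (SD, n = 3). This rise depended on the scaling, since with plain library sizes it was 0.60 on the log2 scale, below the 2-fold limit. No single step between neighbouring stages reached 2-fold for Cryaa in fiber, the largest being E16.5 to E18.5 (log2 0.64, SE 0.13). In epithelium the means were 7418 ± 936, 12508 ± 1059, 9080 ± 419 and 13357 ± 2472 CPM in order of stage. The P0.5 and E16.5 epithelium libraries overlapped, and P0.5 against E14.5 came to 1.80-fold (log2 0.85, SE 0.13), which was not called.

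After TMM scaling, Cryab had similar levels in both tissues at the early stages and was higher in fiber from E18.5 on. At E14.5 the epithelium libraries had 646, 670 and 926 CPM and the fiber libraries 662, 727 and 771 CPM. The ranges overlapped, and the fiber to epithelium difference was -0.05 on the log2 scale (95% interval -0.35 to 0.25, adjusted p = 0.746, edgeR). At E16.5 the epithelium libraries had 1666, 1689 and 1700 CPM and the fiber libraries 1771, 1799 and 1892 CPM, a difference of 0.11 (95% interval -0.19 to 0.41). Both differences were uncalled, and their sign and size depended on the scaling. Plain library sizes gave Cryab -0.87 (E14.5) and -0.97 (E16.5) on the log2 scale, neither of which reached 2-fold. The E16.5 value had an adjusted p of 1.33e-06 (edgeR). At E16.5 library sizes without crystallins gave -0.56 (adjusted p = 0.00368, edgeR), and those without crystallins and Rn45s -0.45 (0.00533). As plain shares of counts, the Cryab means were 0.110% in epithelium and 0.0603% in fiber at E14.5, and 0.254% and 0.130% at E16.5.

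At E18.5 the Cryab levels were 1845, 1990 and 2087 CPM in epithelium and 8844, 9933 and 11510 CPM in fiber. At P0.5 they were 2279, 2979 and 3540 CPM in epithelium and 12281, 13390 and 17072 CPM in fiber. All fiber libraries of these stages lay above all epithelium libraries. The difference was 5.11-fold at E18.5 (log2 2.35, SE 0.15, adjusted p = 7.59e-13, edgeR) and 4.86-fold at P0.5 (log2 2.28, SE 0.15). All 3 genes were called higher at both stages, at which 17.4% and 17.5% of all genes were. At E14.5 and E16.5 only Cryaa and Hspb1 of the 3 were called higher, against 14% and 14.6% of all genes. The differences under plain library sizes were 0.85 and 0.83 on the log2 scale, in the same direction and under 2-fold.

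The averaged Cryab difference of 1.17 on the log2 scale (SE 0.07, adjusted p = 1.65e-13, edgeR) therefore joins 2 stages with no called difference and 2 stages with one. It depended on the scaling, with a value of -0.04 under plain library sizes and 0.49 under library sizes without the crystallin counts. The change of the tissue difference between stages was less dependent. Between E14.5 and P0.5 it was 2.33 on the log2 scale (SE 0.21, adjusted p = 9.08e-09, edgeR), and between E16.5 and E18.5 it was 2.24 (SE 0.21, adjusted p = 1.32e-07). Plain library sizes gave Cryab 1.70 and 1.81 for these changes, both still called. Of all genes tested, 3.77% were called higher in the first of these, which was called for Cryab and Hspb1, and 0.933% in the second, which was called for Cryaa and Cryab. The value of Cryaa in the second (1.10, SE 0.18) was under 2-fold with each of 3 library size scalings (0.68 to 0.99).

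**Figure D2:**
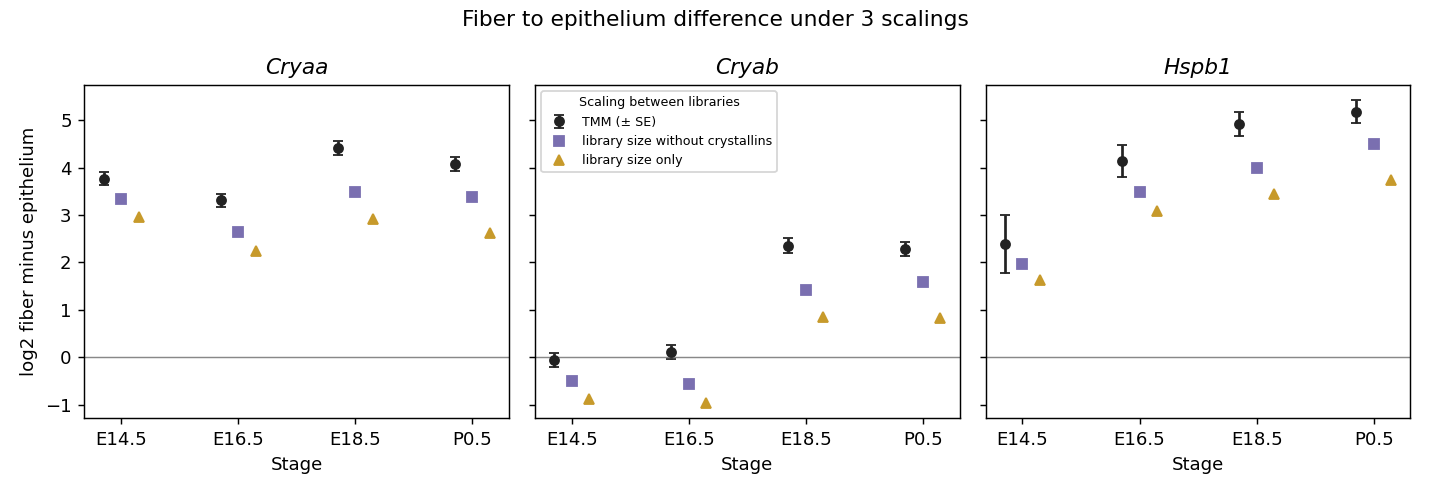
Fiber minus epithelium on the log2 scale for each gene and stage, with TMM scaling (black, bars are SE), library sizes without crystallin counts (squares) and plain library sizes (triangles). All scalings place Cryaa and Hspb1 above 0 at each stage, and Cryab moves from near or below 0 at the early stages to above 0 at the later stages.

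Cryab rose in both tissues with age. In fiber it rose 19.8-fold from E14.5 to P0.5 (log2 4.31, SE 0.16, adjusted p = 2.80e-15, edgeR) and in epithelium 3.92-fold (log2 1.97, SE 0.15, adjusted p = 1.69e-10). In fiber all 3 genes were called higher at P0.5, against 6.69% of all genes. In epithelium Cryab and Hspb1 were called higher, against 10.1% of all genes. The fiber rise ran over 2 steps, 2.53-fold from E14.5 to E16.5 and 5.55-fold from E16.5 to E18.5, steps at which 1.46% and 1.91% of all genes were called higher. In epithelium the one called step was E14.5 to E16.5 (2.25-fold, log2 1.17, SE 0.15), at which 1.71% of all genes were called higher. None of the 3 genes was called by edgeR from E16.5 to E18.5 in epithelium, where 7.3% of all genes were, nor in the last step in epithelium (1.01%) or fiber (0.539%). From E16.5 to E18.5 in epithelium Cryaa passed the p but not the fold (log2 -0.46, adjusted p = 0.00771, edgeR), and Hspb1 had an unadjusted p of 0.0385. In the last step Cryaa (adjusted p = 0.00634, edgeR) and Cryab (0.0114) in epithelium and Cryab in fiber (0.0412) passed the p, with levels 1.41-fold to 1.49-fold higher.

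Markers of other tissues changed with age in the epithelium libraries, beside the epithelial rise of Cryab. All 6 pigment cell markers with a tested row rose from E14.5 to P0.5 in epithelium, with summed levels of 2.09 to 11.2 CPM over the E14.5 and E16.5 libraries, 147 to 173 in E18.5 and 70.4 to 159 in P0.5 libraries. All 10 retina and ciliary margin markers rose as well, with summed levels of 10.8 to 28.6 CPM in E14.5 and 370 to 424 CPM in P0.5 libraries. Of 7 mural cell markers, which mark the cells around vessels, Rgs5 and Acta2 rose, and the list summed to 261 to 293 CPM in E14.5 and 445 to 484 CPM in P0.5 libraries. Of 8 mesenchyme markers 6 fell, with sums of 653 to 741 and then 384 to 425 CPM. Most of both sums was 1 gene, Pdgfra (means of 577 ± 31.1 and 374 ± 16.2 CPM, SD, n = 3), so the sums mainly follow that gene. From E14.5 to E16.5 none of the 6 pigment markers was called higher (by edgeR or DESeq2, and none at an unadjusted p under 0.05). In this step 1 of the 10 retina markers and 1 of the 7 mural markers (Rgs5, log2 1.19, adjusted p = 0.00851, edgeR) were called higher, against 1.71% of all genes. The mean sums went from 6.71 to 4.75 CPM (pigment), 17.2 to 36.2 CPM (retina) and 272 to 320 CPM (mural). From E16.5 to E18.5 the called counts were 6, 9 and 2, while 839 of all 12427 genes tested were called higher. The part of these tissues in the rise of Cryab and Hspb1 in epithelium was not tested.

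Hspb1 was a rare transcript with few counts in epithelium. Its raw counts in the 3 epithelium libraries were 1, 1 and 3 (E14.5), 3, 4 and 5 (E16.5), 6, 9 and 9 (E18.5), and 4, 6 and 17 (P0.5). In fiber they were 8, 8 and 8 (E14.5), 46, 51 and 68 (E16.5), 148, 220 and 224 (E18.5), and 173, 188 and 235 (P0.5). Every fiber library exceeded every epithelium library of the same stage, also after scaling. In CPM the fiber means were 0.651 ± 0.111, 5.08 ± 1.26, 18.6 ± 1.52 and 20.2 ± 3.10 (SD, n = 3), and its rank among tested genes moved from 11654 (E14.5) to 6000 (P0.5).

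Hspb1 was higher in fiber at each stage. The ratio of summed and scaled counts was 5.58 at E14.5 (95% counting interval 2.09 to 18.7, from 24 against 5 counts) and 18.2 at E16.5 (10.1 to 35.9). It was 30.5 at E18.5 (20.3 to 48.0) and 36.3 at P0.5 (24.7 to 55.5). Reads without molecular identifiers are not independent molecules, so these intervals cover counting error alone. Averaged over stages the fitted difference was 4.16 on the log2 scale (SE 0.22, adjusted p = 5.14e-15, edgeR). The difference widened from E14.5 to P0.5 by 2.79 on the log2 scale (SE 0.94, adjusted p = 0.0204, edgeR), but without the third E14.5 epithelium library, which holds 3 of the 5 counts, it was 2.22 with an adjusted p of 0.225.

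In fiber Hspb1 rose 31.1-fold from E14.5 to P0.5 (log2 4.96, SE 0.25, adjusted p = 2.23e-13, edgeR). Most of this came before E18.5, with 7.80-fold from E14.5 to E16.5 and 3.67-fold from E16.5 to E18.5, and the P0.5 and E18.5 fiber libraries overlapped. In epithelium the count ratio of P0.5 to E14.5 was 4.80 (95% counting interval 1.82 to 16.0, from 27 against 5 counts). The fitted rise was 2.17 on the log2 scale (SE 0.60, adjusted p = 0.00340, edgeR), and without the third P0.5 epithelium library, which holds 17 of the 27 counts, it was 1.42 with an adjusted p of 0.0831. Of 10 markers of muscle, a tissue rich in small heat shock proteins, 2 had a row, Tnni1 and Actc1, with summed levels of at most 13.7 CPM. In fiber their mean sum was above Hspb1 at E14.5 (8.5 against 0.651 CPM) and E16.5 (10.6 against 5.08 CPM). It was below Hspb1 at E18.5 (12.8 against 18.6 CPM) and P0.5. Averaged over stages Tnni1 was higher in fiber (log2 1.96, SE 0.097, adjusted p = 1.58e-15, edgeR), and Actc1 was not called (-0.06). The part of muscle RNA in the Hspb1 values was not tested.

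Compared per length of merged exons, Cryaa was the highest of the 3 genes and Hspb1 the lowest in each group. In P0.5 fiber the levels were 167877 ± 3949 CPM per kb for Cryaa, 10461 ± 1841 for Cryab and 19.6 ± 3.01 for Hspb1 (SD, n = 3). In E14.5 epithelium they were 5532 ± 698, 549 ± 114 and 0.106 ± 0.0595 CPM per kb. Ordered by mean CPM, the Cryaa groups ran from fiber at P0.5, E18.5, E16.5 and E14.5 down to epithelium at P0.5, E16.5, E18.5 and E14.5, and only epithelium at P0.5 and E16.5 overlapped among neighbours. For Cryab the order was fiber at P0.5 and E18.5, epithelium at P0.5 and E18.5, fiber and epithelium at E16.5, and epithelium and fiber at E14.5. Among these neighbours E18.5 epithelium overlapped E16.5 fiber, and the E14.5 groups overlapped each other. For Hspb1 the fiber groups at P0.5 and E18.5 overlapped, and E14.5 fiber overlapped E18.5 epithelium, which also overlapped P0.5 epithelium. The P0.5 epithelium libraries (0.258 to 0.938 CPM) in turn overlapped those of E16.5 epithelium (0.225 to 0.388 CPM).

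Ratios of 2 genes within a library do not depend on the scaling between libraries, and they showed that the makeup of alpha crystallin RNA differed between tissues and shifted with age. At E14.5 the epithelium libraries held 7.89, 10.1 and 12.5 Cryaa counts per Cryab count and the fiber libraries 125, 148 and 150. At P0.5 the epithelium libraries held 4.39, 4.65 and 4.68 and the fiber libraries 13.3, 17.1 and 17.8. Fiber exceeded epithelium at 4 of 4 stages without overlap. The mean log2 difference was 2.72, a 6.59-fold difference (exact stratified permutation test, two-sided, p = 1.25e-05, the smallest it can give over 160000 regroupings; adjusted over 3 pairs of genes p = 1.88e-05).

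With age, from E14.5 to P0.5, the Cryaa to Cryab ratio shifted by -3.14 on the log2 scale in fiber and by -1.13 in epithelium. Both shifts had p = 0.1 in an exact permutation test, the smallest that 3 libraries against 3 allow. In both tissues the E14.5 and P0.5 libraries did not overlap. The E16.5 and E18.5 medians were 66.5 and 19.0 in fiber and 7.25 and 4.80 in epithelium. The larger drop of the fiber medians was between E16.5 and E18.5, the larger of the 2 called steps of Cryab.

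**Figure D3:**
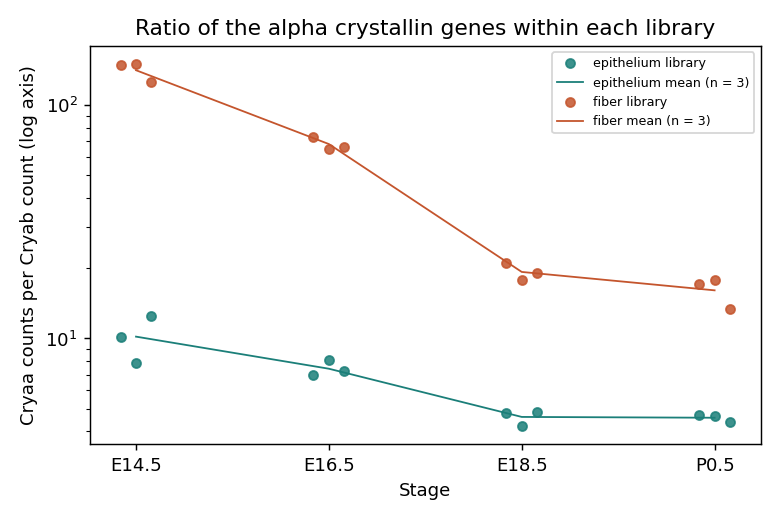
Cryaa counts per Cryab count (log axis) in each library against stage, with lines through the means of 3 libraries. The ratio falls with stage in both tissues and stays higher in fiber, where the E14.5 libraries sit between 125 and 150 and the P0.5 libraries between 13.3 and 17.8.

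Against the other crystallins, alphaA made up a larger part in epithelium than in fiber. Cryaa took 55.5%, 56.9% and 58.8% of all counts of the 16 crystallin genes in E14.5 epithelium and 34.3%, 34.4% and 34.9% in E14.5 fiber. At P0.5 it took 55.0%, 56.1% and 59.0% in epithelium and 29.6%, 29.7% and 30.0% in fiber. Cryab took 4.54%, 5.48% and 7.46% of crystallin counts in E14.5 epithelium, and 11.8%, 12.6% and 12.8% at P0.5. In fiber its part was 0.232%, 0.233% and 0.273% at E14.5 and 1.66%, 1.74% and 2.25% at P0.5. The tissues did not overlap for either gene at these stages.

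Hspb1, the rarest of the 3 genes, was set against both alpha crystallins. The Hspb1 to Cryab ratio was higher in fiber by 3.15 on the log2 scale, with the same exact permutation p of 1.25e-05. The Hspb1 to Cryaa ratio was higher in fiber by 0.43 and at 3 of 4 stages (exact permutation p = 0.124). Without the third E14.5 epithelium library this value was 0.51 (exact permutation p = 0.0447). Over the same interval the Hspb1 to Cryaa ratio moved by 3.81 in fiber and 1.35 in epithelium, each with the smallest exact permutation p of 0.1. The Hspb1 to Cryab ratio moved by 0.67 in fiber (p = 0.1) and by 0.22 in epithelium (exact permutation p = 0.8).

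The epithelium level of each gene was also set against its fiber level, beside 7 fiber markers that show how much fiber RNA the epithelium libraries could hold. Cryaa in epithelium was 7.32%, 10.1%, 4.70% and 5.93% of its fiber mean in order of stage, and Hspb1 was 16.8%, 5.55%, 3.27% and 2.60%. Cryab was 104%, 92.5%, 19.6% and 20.6%. The markers had medians of 4.42%, 4.70%, 1.91% and 2.63%. The lowest of them, Dnase2b, which encodes the nuclease that clears fiber nuclei, was at 1.18%, 1.10%, 1.18% and 0.683%. Mip, which encodes the fiber water channel, was at 2.83%, 2.77%, 1.57% and 1.89%, and Gja3, a gap junction gene, at 16.0%, 18.3%, 11% and 12.5%. Cryaa lay above Mip and below Gja3 at each stage. What part of the epithelial Cryaa and Hspb1 counts came from fiber RNA was not tested.

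**Figure D4:**
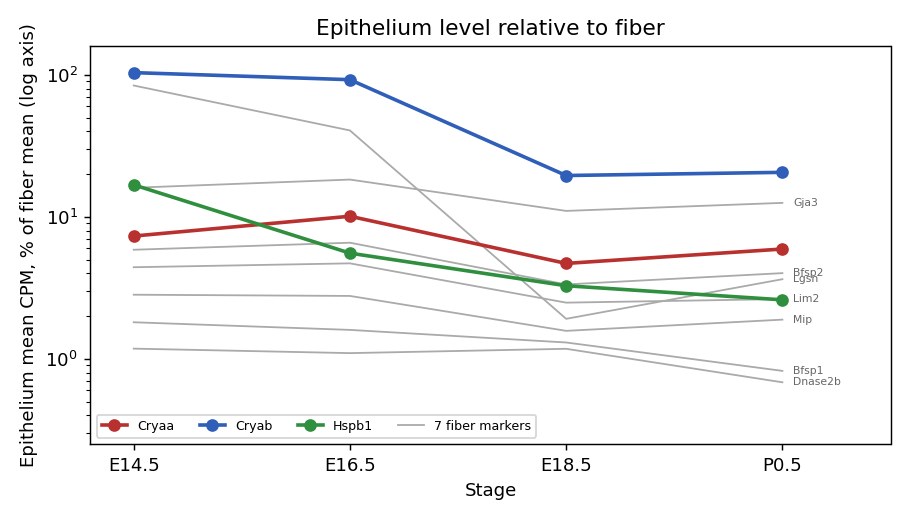
Mean epithelium CPM as a percent of mean fiber CPM (log axis) against stage for the 3 genes (coloured) and 7 fiber markers (grey). Cryab falls from 104% to 20.6%, while Cryaa stays between 4.70% and 10.1%, within the range of the markers.

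The genes whose log2 CPM was most like each member over 24 libraries are given as a description, since the libraries share tissue and depth. For Cryaa these were Gja3, Fgfrl1, Crybb3, Tmem40 and Carhsp1, each with r = 0.997. For Cryab they were Crybb2 (r = 0.970), Mras (0.956), Tmem64 (0.950), Cd44 (0.943) and Gpbp1l1 (0.942). For Hspb1 they were Trafd1 (r = 0.981), Fabp5 (0.981), Ivns1abp (0.980), Crygs (0.979) and Calm3 (0.977). With the mean of each tissue subtracted, Crygs led for Cryab (r = 0.981), Rffl for Hspb1 (0.969) and Carhsp1 and Gja3 for Cryaa (0.954 each). The co-chaperone gene Dnajb2 was then among the 5 nearest of both Cryab (0.978) and Hspb1 (0.959). Among the members themselves r over all 24 libraries was 0.566 for Cryaa with Cryab, 0.878 for Cryaa with Hspb1 and 0.838 for Cryab with Hspb1. With tissue means subtracted these were 0.905, 0.800 and 0.935.

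Of 8 other genes of the small heat shock protein family listed, Hspb2, Hspb3, Hspb6, Hspb8 and Hspb11 have a row, and Hspb7, Hspb9 and Odf1 were not analysed here. Averaged over stages 3 of the 5 were higher in fiber and 1 lower, against 15.7% and 22.2% of all genes, with a median of 1.58 on the log2 scale against -0.03 over all genes. Hspb3 was highest relative to epithelium (log2 5.01, SE 0.09, adjusted p = 2.61e-24, edgeR), with fiber libraries of 38.5, 38.5 and 41.7 CPM and epithelium libraries of 0.838, 1.21 and 1.73 CPM at P0.5. Hspb8, a partner of the co-chaperone Bag3 in selective autophagy, was higher by 1.85 (SE 0.13) and Hspb6 by 1.58 (SE 0.11). Under plain library sizes Hspb8 (0.65) and Hspb6 (0.38) had the same direction without reaching 2-fold. Hspb11, which is a divergent member that acts in cilia, differed by 0.95 on average and was called only at E14.5 (1.19), and the average turned to -0.26 with plain library sizes.

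Hspb2, a small heat shock protein gene of muscle, is the head-to-head neighbour of Cryab on chr9:50751078-50752354 (minus strand), and the annotated genes overlap by 1030 bases. Hspb2 was lower in fiber, with -1.54 on the log2 scale (SE 0.08, adjusted p = 4.63e-15, edgeR), and also with plain library sizes (-2.75), and 22.2% of all genes were called lower. At E14.5 Hspb2 had 10.7, 11.2 and 12.4 CPM in epithelium and 1.86, 1.94 and 2.15 CPM in fiber. At P0.5 it had 19.4, 27.4 and 27.9 CPM in epithelium and 14.9, 15.4 and 17.6 CPM in fiber. It rose in fiber by 3.02 (SE 0.19) and in epithelium by 1.12 (SE 0.13), so its rise in fiber went the same way as that of Cryab. The tissue difference of Hspb2 moved toward fiber by 1.94 from E16.5 to E18.5 (SE 0.22, adjusted p = 1.57e-06, edgeR), the step at which Cryab moved by 2.24.

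Median Cryab counts per Hspb2 count were 60.5 in epithelium and 357 in fiber at E14.5, and 118 and 896 at P0.5. Both genes rose with age. Hspb2 was called lower in fiber at the early stages (-2.53 at E14.5 and -2.47 at E16.5), where Cryab was not called, and had -0.53 (E18.5) and -0.64 (P0.5), both uncalled, where Cryab was called higher. The sources used here do not give the strand setting of the counting, and without it reads of the overlap cannot be told apart.

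**Figure D5:**
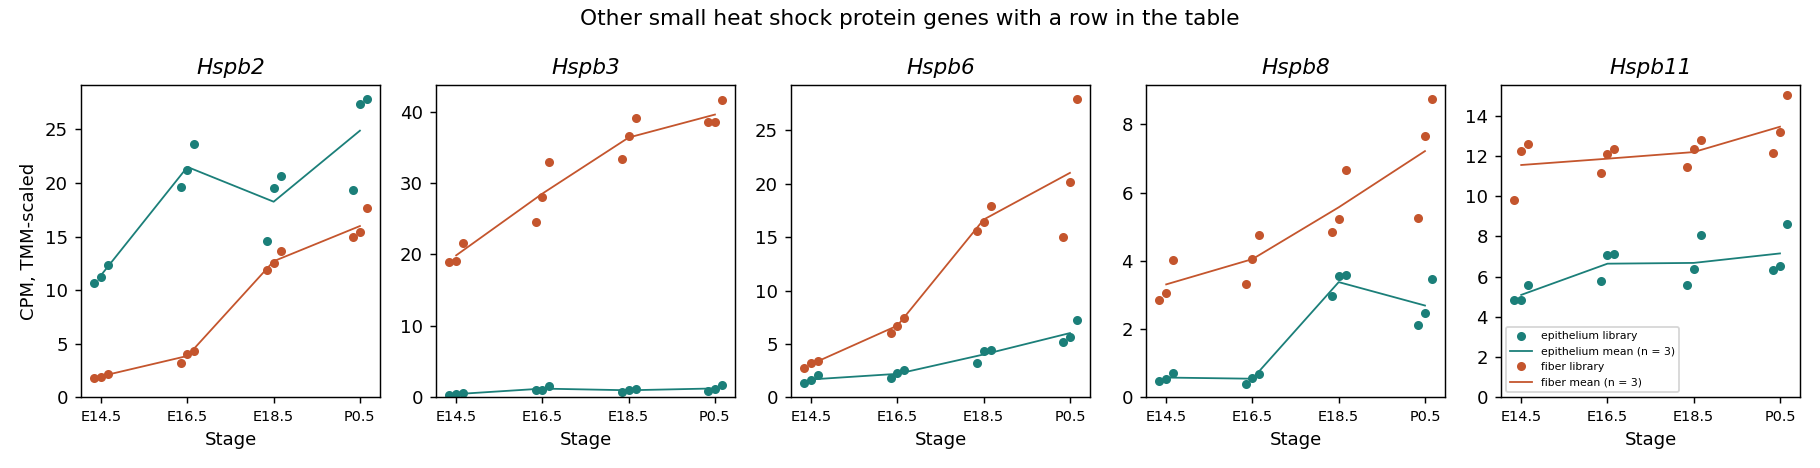
CPM after TMM scaling against stage for the 5 other small heat shock protein genes with a row, 1 point per library ordered from low to high, with lines through the means of 3 libraries. Averaged over stages, Hspb2 is lower in fiber and Hspb3, Hspb6 and Hspb8 are higher. At single stages, Hspb2 is not called at E18.5 and P0.5, Hspb6 at E14.5 and Hspb8 at E18.5. Hspb11 is higher at E14.5 and not called at the later stages (its averaged difference is -0.26 with plain library sizes). Hspb2 and Hspb6 climb in fiber after E16.5.

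Between E14.5 and P0.5, 4 of the 5 rose in epithelium (Hspb2, Hspb3, Hspb6 and Hspb8) and 3 in fiber (Hspb2, Hspb6 and Hspb8), with medians of 1.44 and 1.13 on the log2 scale against 0.01 and -0.02 over all genes. Hspb6 rose 2.74 in fiber (SE 0.20) and 1.85 in epithelium (SE 0.24). Hspb8 rose more in epithelium (2.16, SE 0.30) than in fiber (1.13, SE 0.21), a change of its tissue difference of -1.04 (SE 0.38, adjusted p = 0.0303, edgeR) in a comparison where 7.92% of all genes were called lower. That call was lost without any 1 of 5 libraries (the first or the second E14.5 epithelium, the second E14.5 fiber, the first P0.5 epithelium or the third P0.5 fiber library), with values of -0.99 to -0.82 and adjusted p of 0.0605 to 0.0900 (edgeR). The fiber rise of Hspb8 was 0.99 without the first P0.5 fiber library, and that of Hspb3, 0.99 over all libraries, reached 1.01 to 1.06 without any 1 of 3 fiber libraries. From E16.5 to E18.5 the tissue difference of Hspb8 changed by -2.16 (SE 0.38, adjusted p = 0.000268, edgeR), against 4.35% of all genes. Its epithelium libraries had 0.388, 0.582 and 0.675 CPM at E16.5 and 2.97, 3.57 and 3.59 CPM at E18.5. This is the step at which pigment and retina markers appeared in epithelium, and their part in it was not tested.

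Transcription factors and coactivators known to act on alpha crystallin genes were compared in the same way. Of 17 genes, 5 were higher in fiber (Hsf4, Maf, Mafg, Prox1 and Sox1) and 4 lower (Foxe3, Pax6, Rarb and Sox2), against 15.7% and 22.2% of all genes, with a median of -0.12. Plain library sizes gave 2 higher and 12 lower, against 587 and 7423 of all 12427 genes tested. Hsf4, the heat shock factor that acts in lens fiber cells, was 6.14, 6.41 and 6.96 CPM in E14.5 epithelium and 221, 223 and 252 CPM in E14.5 fiber. At P0.5 it was 5.99, 8.83 and 8.84 CPM in epithelium and 373, 396 and 410 CPM in fiber. Its averaged difference was 5.46 on the log2 scale (SE 0.05, adjusted p = 8.72e-29, edgeR), whereas the stress-activated Hsf1 differed by -0.12 and Hsf2 by -0.16, neither of them called.

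Maf, the c-Maf factor that binds crystallin promoters, was higher in fiber by 2.55 (SE 0.04), and Pax6, which acts on crystallin genes in epithelium, was lower by -1.69 (SE 0.04). Both directions held with plain library sizes (1.34 and -2.90). None of the 17 was called from E14.5 to P0.5 in epithelium by edgeR or DESeq2, since all were under 2-fold, while 5 higher and 10 lower values had an unadjusted p under 0.05 (edgeR). Of these Foxe3 (-0.93) passed 2-fold without any 1 of 3 epithelium libraries (-1.06 to -1.03). In fiber Sox2 (1.30, SE 0.15) and Rarb (1.05, SE 0.18) rose and Foxe3 fell by 1.60 (SE 0.27), in a comparison where 6.69% of all genes were called higher and 5.24% lower. Rarb was under 2-fold without the third E14.5 fiber library (0.86) or the third P0.5 fiber library (0.85). Hsf4 had 0.76 (SE 0.07) and Maf 0.37 (SE 0.08) over the same interval, both under 2-fold, while Cryab had 4.31 and Hspb1 4.96.

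Of 12 listed chaperones and co-chaperones of the heat shock response 10 were tested, and Hspa1a and Hspa1b were not analysed here. Averaged over stages 6 were higher in fiber and none lower, with a median of 1.04, while 15.7% of all genes were higher and 22.2% lower. Under plain library sizes only Dnajb1 was called (2.0), and Bag3, Hsp90aa1, Hsp90ab1, Hspa4l and Hspa8 turned to between -0.19 and -0.05. The list median was -0.16 under that scaling, against -1.23 over all genes. Dnajb1, an Hsp40 cochaperone gene, had 198, 233 and 236 CPM in E14.5 fiber and 25.2, 28.3 and 32.3 CPM in E14.5 epithelium (averaged log2 3.20, SE 0.04, adjusted p = 1.78e-26, edgeR). Bag3 was the one gene of this list called higher in fiber at P0.5 than at E14.5 (log2 2.2, SE 0.20, adjusted p = 2.57e-09, edgeR), from 3.37, 4.18 and 6.07 CPM to 17.2, 22 and 22.7 CPM. The 10 genes summed to 3233 to 3291 CPM in E14.5 fiber and 4149 to 4198 CPM in P0.5 fiber, so Bag3 was not alone in rising. Without the third P0.5 fiber library Hspe1 was called as well (1.08, from 0.84 with all libraries). None of the 10 was called in epithelium over the same interval by edgeR or DESeq2, while 1 higher and 7 lower values had an unadjusted p under 0.05 (edgeR). Immediate early genes, which respond to handling of tissue, summed to 79.6 to 124 CPM in epithelium and 139 to 273 CPM in fiber, and their part in these differences was not tested.

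Cytoskeletal partners of the small heat shock proteins were mostly higher in fiber. Of 7 listed, 6 were tested and 5 were higher, against 15.7% of all genes, with a median of 2.73. Bfsp1 (6.24, SE 0.09) and Bfsp2 (4.39, SE 0.12), which encode the beaded filament proteins of fiber cells, and Synm (4.69, SE 0.06), an intermediate filament gene, held with plain library sizes. The actin genes Actb (1.03, SE 0.03) and Actg1 (1.08, SE 0.06) turned to -0.18 and -0.12 with that scaling, under which the median of all genes was -1.23. Vim, the vimentin gene, differed by 0.56 and was not called, and was -0.65 with plain library sizes. From E14.5 to P0.5 in fiber Bfsp1 (2.09, SE 0.14) and Bfsp2 (1.64, SE 0.21) were called higher. The other 4 stayed under 2-fold, with Synm at 0.62 (adjusted p = 1.11e-05, edgeR), Actb at 0.56 (9.89e-08), Vim at 0.11 (0.281) and Actg1 at -0.34 (0.0240).

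Genes of the kinase pathway that phosphorylates Hspb1 were lower in fiber where they were called. Of 10 genes listed 8 were tested, and 3 were lower in fiber and none higher, with a median of -0.86, while 22.2% of all genes were lower and 15.7% higher. They were Mapkapk2 (-1.38, SE 0.04, adjusted p = 1.14e-20, edgeR) and Mapkapk3 (-1.35, SE 0.15), kinases of Hspb1, and Mapk13 (-3.40, SE 0.35), a p38 kinase. Mapk13 rests on few counts, with group sums in order of stage of 13, 25, 115 and 198 in epithelium and 4, 4, 3 and 3 in fiber. Plain library sizes gave 7 of the 8 lower, a scaling under which 7423 of all 12427 genes tested were called lower.

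The 14 beta and gamma crystallin genes give the scale of the alpha crystallins. All 14 were higher in fiber averaged over stages, with a median of 5.91 and values from 2.89 (Crybb2, SE 0.27) to 6.87 (Crygb, SE 0.13), while Cryaa had 3.89 and Cryab 1.17. Values of single gamma crystallin genes are uncertain where near-identical copies share reads. With age 13 of the 14 were called higher in fiber, against 6.69% of all genes, with a median of 1.59. With plain library sizes 7 were called higher, against 367 of all 12427 genes tested. Crybb2 (9.16, SE 0.48) and Crygs (4.92, SE 0.24) had the largest rises, and Cryab with 4.31 came next among crystallins. In epithelium 4 of the 14 were called higher (Cryba2, Crybb2, Crygb and Crygs), against 10.1% of all genes, and 7 were without the first P0.5 epithelium library, which added Crygd, Crygf and Crygn. The median was 0.72, while Cryab had 1.97 and Cryaa 0.85.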

How the data were processed

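Total RNA from microdissected lens epithelium and fiber was sequenced in 24 libraries, 3 biological replicates for each of 8 tissue and stage groups, per the labels. The deposited table holds whole-number counts per gene symbol, with no normalization by the authors. The submitters' processing notes name build mm10 and, with no role or order, Cuffdiff, Cufflinks (2.2.1), HTSeq (0.6.1), TopHat2 (2.0.13) and Trim Galore (0.4.1). The sources used here give neither the strand setting nor the handling of reads with several matches. Groups were taken from the labels' tissue and stage, and p-values measure the spread between these replicates.

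Genes were filtered with filterByExpr (minimum count 10, minimum total 15), which kept 12427 of 12611 genes and removed 184. All 24 libraries entered 1 edgeR 4.0.16 quasi-likelihood fit (R 4.3.3) of 8 group means with TMM scaling (residual degrees of freedom 16, coefficient of biological variation 0.0821). Comparisons were contrasts of that fit, adjusted by Benjamini-Hochberg over all genes. SE is the size of the log2 difference over the root of the test's F value. Count ratios of 2 genes were compared with exact permutation tests, with scipy 1.17.1. The changes of the tissue difference between neighbouring stages were added after the data had been seen. Alternatives were RLE scaling, plain library sizes, library sizes without crystallins or without crystallins and Rn45s, no filter, DESeq2 1.42.0, only the groups compared, a replicate block, another pseudocount, and leaving out each library. The edgeR fit was tested on simulated data in which genes of higher count were changed, in equal numbers up and down. That simulation covered neither low counts such as those of Hspb1 nor the shift in crystallin share between tissues. Replicates differed by more than counting noise (chi-square per degree of freedom 4.01 to 334 over 24 pairs).

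The members, the gene lists and the marker lists were chosen with earlier results of these data known. Some genes of these lists are not reported here, and the counts, sums and medians of the lists leave them out. The genes named are the 3 members, genes of those lists, and for likeness the 5 genes with the highest correlation with each member among those with a mean of at least 20 CPM. Positions are those of GENCODE M21 (GRCm38, the assembly of mm10) and promoters those of RefSeq (GRCm38.p6). The 50-base words of each member were looked up in all GENCODE M21 transcripts.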

Additional observations from a re-analysis of the deposited data

Results flagged for a closer look

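The difference between fiber and epithelium changed with stage for all 3 genes and for 2 other genes of the family, by edgeR's quasi-likelihood test of that change. From E14.5 to P0.5 it moved toward fiber by 2.33 on the log2 scale for Cryab (adjusted p = 9.08e-09), 2.79 for Hspb1 (adjusted p = 0.0204) and 1.89 for Hspb2 (adjusted p = 1.63e-06). Without the third E14.5 epithelium library the Hspb1 value was 2.22 (adjusted p = 0.225, edgeR). The difference moved toward epithelium for Hspb8, with -1.04 (adjusted p = 0.0303), a call that was lost without any 1 of 5 libraries (-0.99 to -0.82, adjusted p = 0.0605 to 0.0900, edgeR).

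From E16.5 to E18.5 it moved by 1.10 for Cryaa (adjusted p = 0.000138), 2.24 for Cryab (adjusted p = 1.32e-07) and 1.94 for Hspb2 (adjusted p = 1.57e-06), and by -2.16 for Hspb8 (adjusted p = 0.000268). The value of Cryaa was under 2-fold with each of the 3 library size scalings. Between these stages the pigment and retina markers rose in the epithelium libraries, and their part in these changes was not tested.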

How the results depend on the processing

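Of 362 alternative values for 21 results, 351 kept their direction and their side of the threshold. Of the 362, 252 came from leaving out 1 library. The 6 ratio shifts with age cannot give a p under 0.1, so their alternatives could change direction but not side. With plain library sizes the median of all genes in the averaged tissue comparison moved from -0.03 to -1.23, and calls from 1945 higher and 2758 lower to 587 and 7423 (4703 to 8010 in all). Calls moved from 1482 to 2535 for P0.5 against E14.5 in fiber and from 1452 to 3398 for the change of the tissue difference. Under that scaling Cryab averaged -0.042, with -0.97 (E16.5), 0.85 (E18.5) and 0.83 (P0.5), Cryaa rose 0.60 in fiber, and its tissue difference changed by -0.33 from E14.5 to P0.5 and 0.68 from E16.5 to E18.5. Without crystallins, and without crystallins and Rn45s, Cryab averaged 0.49 and 0.57 and had -0.56 and -0.45 at E16.5, and the E16.5 to E18.5 change of Cryaa was 0.84 and 0.99. The change of the Cryab difference from E14.5 to E16.5 was -0.096 and -0.062 with plain sizes and without crystallins, and from E18.5 to P0.5 0.17 without crystallins. A pseudocount of 0.5 turned the epithelial Hspb1 to Cryab shift to -0.14.

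Leaving out 1 library at a time gave Cryaa 3.86 to 3.92, Cryab 1.14 to 1.22 and Hspb1 4.08 to 4.34 for the averaged difference. It gave Hspb1 1.42 to 2.73 for P0.5 against E14.5 in epithelium, 2.22 to 3.54 for the change of its tissue difference, 0.37 to 0.53 for Hspb1 to Cryaa between tissues and -0.21 to 0.72 for Hspb1 to Cryab with age in epithelium. Uncalled values that changed sign were Cryab at E14.5 (-0.15 to 0.13), Hspb1 from E18.5 to P0.5 in epithelium (-0.89 to 0.16) and fiber (-0.0093 to 0.19), and the tissue change of Cryab from E14.5 to E16.5 (-0.018 to 0.26) and from E18.5 to P0.5 (-0.23 to 0.083) and of Hspb1 from E18.5 to P0.5 (-0.047 to 1.01). The cause was not tested. Replicate numbers were not taken to pair the tissues: r of same-numbered libraries was -0.078 to 0.358 over 12 pairs, 7 of them over 0.1 and 6 nearest to their own number, with all 3 E16.5 pairs in both counts. With a replicate block the averaged values were 3.90 for Cryaa, 1.18 for Cryab and 4.17 for Hspb1, 4705 genes were called, and no call of the 3 genes changed. Hspb1 ratios per length depend on the length used, and its epithelial level rests on 5 to 27 counts a group.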
